A study of Mus musculus with 4 samples.

Results

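Mitochondrial respiration runs through 5 membrane complexes, and the 85 genes described here carry the names of the nuclear genes for them. They were taken from the 22690 genes of the table by symbol: Ndufa, Ndufb, Ndufc, Ndufs and Ndufv genes for complex I (37), Sdha to Sdhd for complex II (4), Uqcr genes for complex III (8), Cox4 to Cox8 genes for complex IV (18) and Atp5 genes for complex V (18). None lies on the mitochondrial chromosome, and 84 of the 85 are protein-coding in GENCODE M21. Of the Atp5 names, 3 encode no subunit: the pseudogene Atp5l-ps1, and Atp5s and Atp5sl, which are named for a coupling factor and its relative. Ndufa4 and Ndufa4l2 are counted with complex I by name, although the NDUFA4 protein is found in complex IV. RNA came from retinal cells of C57BL/6 mice at postnatal day 2 that were gated on doubled (4N) DNA, which cells hold between copying their genome and dividing; before the sort they spent a short time in serum-free culture. Labels give the GFP-negative fraction as wild type (2 libraries) and the GFP-positive fraction as Casz1 cKO (2 libraries), a conditional knockout of the zinc finger factor Casz1. The sorted fraction therefore differs together with the genotype, and neither the driver of the knockout nor the number of animals per library is given in the sources used here. Each column name carries 1 of 2 numeric tags, written A and B, that occur once in each group. Values of a pair of libraries are given in the order A, B.

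Complex I takes electrons from NADH and complex II from succinate; both pass them through ubiquinone to complex III, and cytochrome c carries them to complex IV, where oxygen is reduced. Proton pumping by complexes I, III and IV drives complex V, the ATP synthase. Apart from complex II, each complex joins subunits made from nuclear genes with subunits made inside the mitochondrion, and many nuclear subunit genes are regulated by NRF-1 and by ETS factors of the GABP type. The retina has a high demand for ATP, and its dividing progenitors also rely on glycolysis.

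Depth in genes was 75832360 and 83753377 reads for wild type and 22326119 and 89473701 reads for cKO. Pearson correlations of cKO library A with the others across genes were 0.902 to 0.918, against 0.988 to 0.993 among the other 3, so the medians are also given within tag B, which does not use that library. Among marker lists, progenitor genes, 10 of 13 with a fold change above 0, summed to normalized counts of 564080 and 571611 in wild type and 746253 and 626388 in cKO. Rod precursor markers, 12 of 13 of them lower in both cKO libraries, summed to 107510 and 96411 in wild type and 53668 and 64139 in cKO. Cone markers, all 9 tested of them lower at both tags and 7 without overlap, summed to 39977 and 51683 in wild type and 21701 and 34006 in cKO; Opn1mw was at 0 in every library and Arr3 in cKO library A. Microglial markers, all 12 of them lower in both cKO libraries, summed to 21962 and 20743 in wild type and to 1375 and 9377 in cKO; of these only Aif1 was at 0, in cKO library A. Of the other lists, fold changes were above 0 in 6 of 8 ganglion, 3 of 6 endothelial and mural and 1 of 4 astrocyte markers. Endothelial and mural markers summed to 44273 and 39435 in wild type and 50293 and 40397 in cKO. Astrocyte markers summed to 24142 and 18871 in wild type and 37773 and 19113 in cKO. Lens, erythroid and pigment epithelium lists had 1, 1 and 2 genes tested. In sorted bulk cells a smaller number of cells of a type and less RNA per cell cannot be told apart, and the part of these shifts in the results was not tested. Over all genes tested, 46.7% had a fold change above 0, and 22.3% were lower in both cKO libraries than in either wild-type library.

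Most transcripts of the set, 62 of the 80 tested, were higher in both GFP-positive cKO libraries than in either wild-type library, by small amounts. The share was 17.2% over all genes tested and 20.9% over genes with a mean of at least 1000. The members together took 0.851% and 0.925% of reads in genes in wild type and 1.12% and 1.000% in cKO (95% Wilson intervals 0.849 to 0.854, 0.923 to 0.927, 1.11 to 1.12 and 0.998 to 1.002, for counting error only). Both cKO shares lay above both wild-type shares. Summed normalized counts stood in a ratio of 1.42 between the libraries of tag A and of 1.11 at tag B, and wild-type library B stood at 1.09 times wild-type library A. In these sums the gap between the wild-type libraries was thus close to the gap between the groups at tag B. By gene, the median log2 difference of wild-type library B from A was 0.23, larger than the median log2 ratio of 0.17 at tag B.

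Counted by gene, 80 of the 85 members passed the filter, a mean of 10 normalized counts or more over the 4 libraries. Of these, 77 had a fold change above 0, where a fold change is the difference of the group means of log2(normalized count + 1). Over all 14480 genes tested the share above 0 was 46.7%, and over the 8902 genes with a mean of at least 1000 it was 54.0%. The members' median was 0.33 and the median of all genes tested was −0.03; without wild-type library A the members' median was 0.21, and without cKO library A it was 0.29. Both cKO libraries lay above both wild-type libraries in 62 of the 80 members, and both lay below in 1 (Atp5sl), against 17.2% and 22.3% of all genes. Within each tag separately, 74 of 80 were higher in cKO at both tags, against 32.7% of all genes. Members are abundant, and among all genes with a mean of at least 1000 the shares were 20.9% for both cKO libraries above both wild-type ones and 40.4% for both tags. Of the members at that level, 62 of 77 and 74 of 77 did so.

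No single member passed the test. In limma with Benjamini-Hochberg adjustment over all genes, the threshold of 0.05 was met by 0 of 80 members and by 0 of 14480 genes (0.0%). The lowest adjusted p of a member in limma was 0.771. At an unadjusted p under 0.05, limma had 1 member higher, Atp5e, against 0.193% of all genes. On the recovered reads edgeR called 0 members, with 2 higher at an unadjusted p under 0.05 (0.262% of all genes). DESeq2 also called 0 members, where 0.0% of all genes were called higher and 0.00691% lower, with 7 higher at an unadjusted p under 0.05 (0.739%). Without cKO library B limma called 29 members, 27 higher and 2 lower, where 12.8% of all genes were called higher and 26.4% lower, in a fit that lends the lone cKO library the spread of the wild-type libraries. Without cKO library A, limma called 0 members (0.0206% of all genes higher and 0.502% lower), with 9 higher at an unadjusted p under 0.05 (1.15% of all genes). With a block for the tag, limma called 0 members, with 5 higher at an unadjusted p under 0.05 (1.05% of all genes). In the authors' deposited table, 78 of the 83 members with a ratio were above 1, the median ratio was 1.26 and the lowest adjusted p was 1.000.

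**Figure D1:**
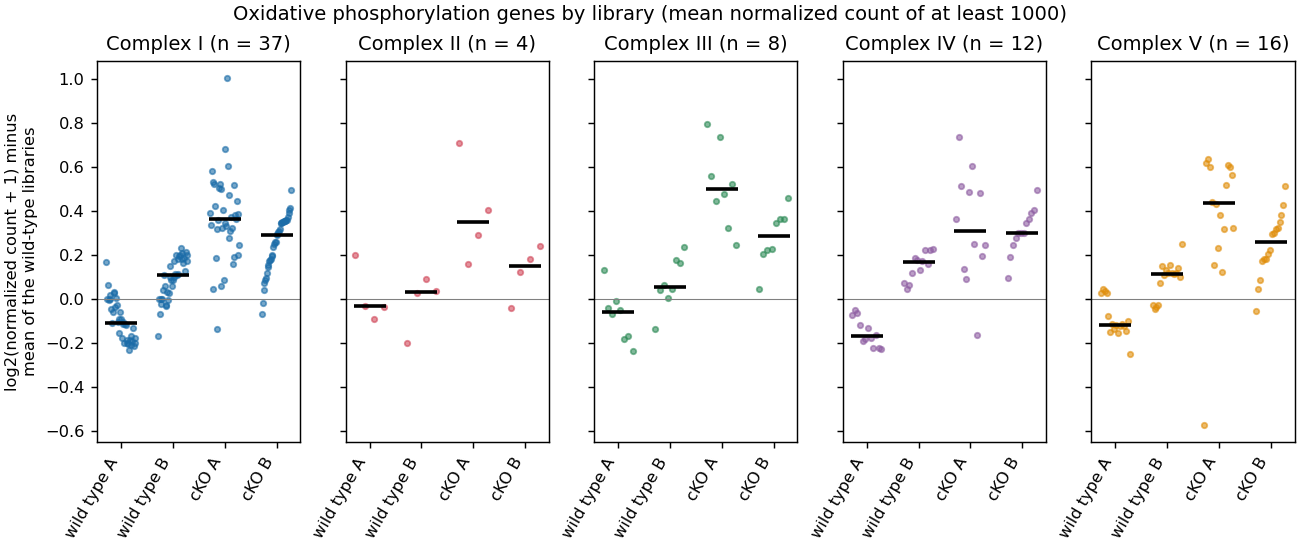
Each point is 1 gene (mean of 1000 normalized counts or more) in 1 library, as log2(normalized count + 1) minus its mean over the wild-type libraries; bars are medians, and genes stand from left to right by their level in cKO library B. Over all 77 genes the medians were −0.11 and 0.11 for the wild-type pair and 0.38 and 0.29 for the cKO pair (A, B).

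The shift was larger at tag A than at tag B in 74 of 80 members. The median log2 ratio of tag A was 0.51 and that of tag B 0.17. The middle of the set was narrow at both, from 0.39 to 0.58 between the quartiles at tag A and from 0.11 to 0.20 at tag B. All genes tested spread from −0.66 to 0.34 at tag A and from −0.13 to 0.10 at tag B. Wild-type library B was above wild-type library A in 66 of the 80 members, with a median difference of 0.23. The ratio at tag B exceeded the difference of the wild-type libraries in 25 of 80 members, and the ratio at tag A did in 66. Over all 14480 genes tested, the ratio at tag B did so in 2100 and that at tag A in 4841. The ratio at tag A was above that at tag B in 6753 of all genes, and wild-type library B was above A in 7320. Across the 77 members with a mean of at least 1000 the ratios at the tags were related with a Pearson r of 0.40 and a Spearman rho of 0.38; this is across genes measured in the same libraries, so the points share depth and scaling.

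**Figure D2:**
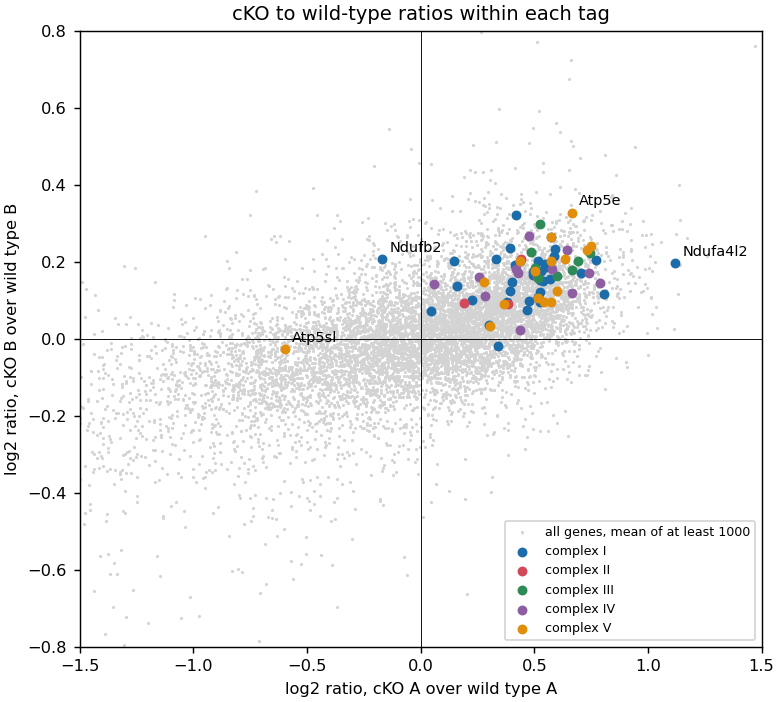
The log2 ratio of cKO to wild type at tag A (x axis) is plotted against that at tag B (y axis) for members with a mean of at least 1000, coloured by complex, over all genes of that level in grey (234 of these lie outside the axes). Of 77 members, 74 lie above 0 on both axes; Atp5sl lies below 0 on both axes.

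Start regions are shown for the member of each complex with the highest fold change among those with a RefSeq window (GRCm38.p6). Ndufb2, the lowest of the subunit genes with a window and a mean of at least 50, is shown as well. Each sequence is the stretch of 250 bases before the annotated start, 5′ to 3′ on the gene's strand. Capitals mark matches to GCGCA and GCGC separated by any 1 base (NRF-1), CCGGAAGT (GABP, an ETS factor) or AAGATGGCG (YY1), searched on both strands. The windows are chr4:123718187-123718436 (minus strand, Ndufs5), chr13:74350241-74350490 (minus, Sdha), chr10:80406822-80407071 (minus, Uqcr11), chr5:115348959-115349208 (minus, Cox6a1), chr2:174464102-174464351 (minus, Atp5e) and chr6:39592315-39592564 (plus, Ndufb2).
Ndufs5: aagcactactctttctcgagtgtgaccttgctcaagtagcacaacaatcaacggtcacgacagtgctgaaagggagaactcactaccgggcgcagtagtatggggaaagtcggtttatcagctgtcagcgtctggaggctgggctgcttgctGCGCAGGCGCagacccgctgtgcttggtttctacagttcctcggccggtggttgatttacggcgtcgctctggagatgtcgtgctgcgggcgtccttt
Sdha: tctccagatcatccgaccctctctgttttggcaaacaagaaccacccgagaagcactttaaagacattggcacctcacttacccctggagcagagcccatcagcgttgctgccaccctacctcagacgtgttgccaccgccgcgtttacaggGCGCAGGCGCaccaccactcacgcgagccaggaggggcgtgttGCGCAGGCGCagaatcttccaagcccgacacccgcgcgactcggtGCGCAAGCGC
Uqcr11: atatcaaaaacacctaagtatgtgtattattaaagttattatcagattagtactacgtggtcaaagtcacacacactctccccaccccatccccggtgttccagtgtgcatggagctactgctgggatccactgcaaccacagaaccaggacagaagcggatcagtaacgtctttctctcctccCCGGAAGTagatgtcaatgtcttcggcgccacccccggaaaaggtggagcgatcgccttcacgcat
Cox6a1: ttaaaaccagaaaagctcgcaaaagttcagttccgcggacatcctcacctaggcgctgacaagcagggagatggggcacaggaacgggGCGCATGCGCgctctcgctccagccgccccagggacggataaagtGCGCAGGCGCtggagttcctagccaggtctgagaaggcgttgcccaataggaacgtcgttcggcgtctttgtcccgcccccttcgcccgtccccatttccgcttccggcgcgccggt
Atp5e: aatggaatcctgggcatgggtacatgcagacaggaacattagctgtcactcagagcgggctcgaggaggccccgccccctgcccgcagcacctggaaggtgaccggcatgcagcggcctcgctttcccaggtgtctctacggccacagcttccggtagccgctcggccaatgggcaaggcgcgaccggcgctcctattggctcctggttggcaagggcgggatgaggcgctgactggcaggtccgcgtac
Ndufb2: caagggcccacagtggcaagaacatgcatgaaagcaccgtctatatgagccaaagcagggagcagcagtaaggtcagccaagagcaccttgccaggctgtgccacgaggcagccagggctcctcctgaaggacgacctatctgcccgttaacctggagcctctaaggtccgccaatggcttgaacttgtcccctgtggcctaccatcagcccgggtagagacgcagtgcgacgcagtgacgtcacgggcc
Sdha holds 3 NRF-1 matches, which begin 98, 55 and 10 bases before the start. Cox6a1 holds 2, at 162 and 117 bases, and Ndufs5 holds 1, at 98 bases. Uqcr11 has a GABP match at 66 bases. Neither Atp5e nor Ndufb2 has any of these letters in the stretch, from which nothing follows about the factors.

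Over windows of 300 bases (250 before and 50 after a start), 69 of the 85 members had at least 1 window, 75 windows in all. Counted by gene, the NRF-1 letters occurred in 17 of the 69 (24.6%), against 7.17% of 17492 protein-coding genes with a window. YY1 letters occurred in 8 (11.6% against 2.14%) and GABP letters in 5 (7.25% against 5.69%). By window, the NRF-1 letters were in 18 of the 75 (24.0%), against 4.60% of all 32851 windows, which include those of non-coding genes. A match is a description of the sequence and not a bound site. Median fold changes of tested members were 0.37 with the NRF-1 letters (17 members) and 0.32 without (50), and at tag B 0.19 and 0.15. For the GABP letters they were 0.34 with (5 members) and 0.33 without (62), and at tag B 0.19 and 0.16. The YY1 letters went the other way, with 0.31 (8 members) against 0.33 without (59), and at tag B 0.13 against 0.17. None of these differences was tested. For the transcripts of the factors themselves the log2 fold change was 0.22 for Nrf1, the gene of NRF-1, 0.03 for Gabpa, the DNA-binding GABP subunit, and 0.11 for Yy1, with standard errors of 0.17 to 0.23. The groups overlapped for Nrf1, where wild-type library A lay above cKO library B.

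Complex I, the NADH dehydrogenase, had all 37 members above 0, with a median log2 fold change of 0.32 (0.20 without wild-type library A). Both cKO libraries were above both wild-type libraries in 29 of them, against 17.2% of all genes. At tag A the median was 0.50 and at tag B 0.17, with 36 of 37 higher at each. Ndufa4l2, a paralogue of Ndufa4 known as a hypoxia-induced gene, had the highest fold change of all tested members. The gene lies at chr10:127514967-127517154 (GRCm38). Its normalized counts were 5464 and 6401 in wild type and 11866 and 7340 in cKO. cKO library A stood far above the other 3, and the groups did not overlap. The log2 fold change was 0.66 (SE 0.27; limma, adjusted p = 0.771). Tag A alone gave 1.12 and tag B alone 0.20, and it was 0.31 without cKO library A.

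Ndufv1, the flavin-carrying core subunit that binds NADH, had 8098 and 6422 in wild type and 9475 and 6885 in cKO. Each cKO library was above the wild-type library of its own tag, while the groups overlapped. The log2 fold change was 0.16, and −0.067 without cKO library A.

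Ndufs5, an accessory subunit whose start region holds an NRF-1 match, had 1436 and 1623 in wild type and 2453 and 1870 in cKO, with no overlap. Its log2 fold change was 0.49 (SE 0.22). Ndufb2, an accessory subunit of the membrane arm, had the lowest fold change of complex I: 1718 and 1645 in wild type against 1528 and 1899 in cKO. The cKO libraries lay on either side of the wild-type pair, and the log2 fold change was 0.02, with −0.17 for tag A and 0.21 for tag B. Ndufs1, the largest core subunit, had 5549 and 5569 in wild type and 5733 and 5853 in cKO. The libraries of each group nearly coincided, and the difference was small, with a log2 fold change of 0.06.

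Complex II, succinate dehydrogenase, is encoded by 4 nuclear genes alone and also works in the TCA cycle. All 4 were above 0, with a median of 0.28, of 0.41 at tag A and of 0.13 at tag B; it was 0.15 without cKO library A. Sdha, the flavin subunit, had 13693 and 10371 in wild type and 19511 and 11599 in cKO. The groups overlapped, because wild-type library A was above cKO library B; the log2 fold change was 0.34 (SE 0.30), and it was −0.039 with cKO library A left out and 0.71 with B left out. Sdhb, the iron-sulphur subunit, had 4956 and 5206 in wild type against 6728 and 6015 in cKO. There the groups did not overlap, and the log2 fold change was 0.32. Of the membrane anchors, Sdhc had 6367 and 6630 in wild type and 7270 and 7075 in cKO, and Sdhd had 5343 and 6064 against 6980 and 6454. Neither overlapped, with log2 fold changes of 0.14 and 0.24; without wild-type library A Sdhd had 0.15.

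Complex III, the cytochrome c reductase, had a median of 0.40, with its 8 members from 0.34 to 0.48. Over left-out libraries that median ranged from 0.29 (without cKO library A) to 0.50 (without cKO library B). All 8 were higher at both tags (32.7% of all genes), with medians of 0.56 and 0.19. In 7 both cKO libraries lay above both wild-type ones (17.2% of all genes). Uqcrc2, a core protein, had 11002 and 11661 in wild type and 16694 and 13068 in cKO. Both cKO libraries were higher, and the log2 fold change was 0.38 (SE 0.20), and 0.21 without cKO library A. Uqcr11, a small subunit, had 3005 and 3033 in wild type and 5029 and 3542 in cKO, again without overlap. Its log2 fold change was 0.48 (SE 0.23), and it was 0.23 with cKO library A left out and 0.74 with B left out. Uqcrc1, the other core protein, had 9351 and 7774 in wild type and 14822 and 8800 in cKO. It was the exception to the separation of the groups, since wild-type library A exceeded cKO library B. The log2 fold change was 0.42, and it was 0.046 with cKO library A left out and 0.80 with B left out. Uqcrfs1, the Rieske iron-sulphur protein, had 7273 and 7980 against 10388 and 8906, with the groups apart and the lowest fold change of the complex, 0.34.

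Complex IV, cytochrome c oxidase, had 14 of its 18 members tested, and 13 of these were above 0, with a median of 0.30. Tag A had a median of 0.46 and tag B one of 0.15, and without wild-type library A the complex had 0.14, without wild-type library B 0.49. The groups did not overlap in 9, all of them higher, against 17.2% of all genes. Cox4i1, the ubiquitous form of a regulatory subunit, had 15622 and 17088 in wild type and 23319 and 19369 in cKO. The groups were apart, with a log2 fold change of 0.38 (SE 0.19), and 0.25 without cKO library A. Cox6a1 had 6109 and 6532 in wild type and 10545 and 7225 in cKO. It had the highest fold change of the complex, 0.47, most of it from cKO library A, and 0.19 without that library. Cox6b1, which faces the intermembrane space, had 7710 and 9645 in wild type against 12062 and 11321 in cKO, with no overlap and a log2 fold change of 0.44, or 0.28 without wild-type library A. Cox7c had 3845 and 5237 in wild type and 4004 and 5785 in cKO. These values went with the tags rather than with the groups, and the log2 fold change was 0.10, with −0.12 without wild-type library A and −0.16 without cKO library B.

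Complex V, the ATP synthase, had 17 of 18 members tested and 15 above 0, with a median of 0.33, of 0.54 at tag A and of 0.15 at tag B; it was 0.22 without wild-type library A and 0.23 without cKO library A. All 15 are subunit genes, and the remaining 2 tested rows encode none. Atp5b, the catalytic beta subunit, was the most highly counted member: 62878 and 58975 in wild type and 93525 and 62993 in cKO. cKO library B lay just above wild-type library A, and the log2 fold change was 0.33 (SE 0.25). Without cKO library A it was 0.049, and without cKO library B it was 0.62. Atp5a1, the alpha subunit, showed the same order, with 47810 and 45422 in wild type and 72525 and 49550 in cKO, and a log2 fold change of 0.36 (0.089 with cKO library A left out and 0.64 with B left out). Atp5e, the epsilon subunit of the central stalk (chr2:174461072-174464105, GRCm38), had 5749 and 6608 in wild type and 9109 and 8296 in cKO. Both cKO libraries were higher, with 0.66 for tag A, 0.33 for tag B and a log2 fold change of 0.50 (SE 0.18). Without cKO library A it was 0.43.

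Atp5sl, which encodes no subunit of the synthase, had 1493 and 1440 in wild type and 986 and 1413 in cKO, the reverse of the subunits. cKO library B lay just below the wild-type pair, and the log2 fold change was −0.31 (SE 0.25), and −0.053 without cKO library A. Atp5s had 292 and 446 in wild type and 321 and 372 in cKO, with overlap and a log2 fold change of −0.06. The pseudogene Atp5l-ps1 did not reach the filter, with 0.759 and 5.52 in wild type and 0 and 9.26 in cKO.

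Several subunits have paralogues of restricted expression, and these separated into detected and absent forms in the same way in both groups. Levels are compared here as normalized counts per kb of annotated exon. Cox4i2, a form known for its hypoxia response, made up 22.6% and 24.3% of the Cox4i1 and Cox4i2 sum in wild type and 24.6% and 24.2% in cKO. Its counts were 2322 and 2791 in wild type and 3878 and 3140 in cKO, without overlap, with a log2 fold change of 0.46, or 0.30 without cKO library A. Ndufa4l2 made up 55.0% and 51.0% of its pair with Ndufa4 in wild type and 67.0% and 52.3% in cKO. Cox6b2, known from testis, was at 1.90% to 2.79% of its pair in all 4 libraries, with counts of 235 and 433 in wild type and 366 and 391 in cKO. Cox7a2, the common form of its family, and Cox7a2l, known for joining complexes III and IV, each supplied about an equal part, at 50.2% to 53.7% and 46.1% to 49.4% over the 4 libraries. Their log2 fold changes were 0.37 and 0.30, in both without overlap, and 0.14 and 0.13 without wild-type library A. Cox6c and Cox7b, at 0.20 and 0.30, had overlapping groups, and without wild-type library A they had 0.0073 and 0.079. Cox8a had 0.23 without overlap, and 0.096 without cKO library A. The other restricted forms were at or near 0.

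Cox7a1, the heart and muscle form, had 25.1 and 17.9 in wild type and 0 and 18.5 in cKO. The 0 of cKO library A, where 3 reads are worth 8.38, sets the fitted value of −2.33, which is no measured size; at tag B the log2 ratio was 0.04. Cox6a2, the muscle partner of Cox6a1, had 2.28 and 2.07 in wild type and 0 and 3.97 in cKO. Cox7b2 had 0 and 1.38 in wild type and 0 and 0.661 in cKO. Cox8b and Cox8c were at 0 in all 4 libraries, which allows up to 3 reads in each, or 1.98 to 8.38 normalized counts. These 4 genes and Atp5l-ps1 are the 5 members that did not reach the filter.

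Subunit c of the ATP synthase rotor is made from 3 genes whose mature proteins are the same. Atp5g3 supplied 69.2% and 70.1% of their summed level per kb in wild type and 63.2% and 67.6% in cKO. Atp5g2 supplied 24.0% and 23.3% in wild type against 29.5% and 25.8% in cKO, and Atp5g1 supplied 6.55% to 7.33% in all 4 libraries. These shares rest on annotated exon lengths of 4912 bases for Atp5g1, 1675 for Atp5g2 and 2181 for Atp5g3. Mean normalized counts, not divided by length, were 2936, 3788 and 12849 in that order. The order of the 3 genes was the same in every library. The fold changes were 0.17 for Atp5g3, 0.48 for Atp5g2 and 0.32 for Atp5g1 on the log2 scale, and 0.03, 0.23 and 0.10 at tag B. Without wild-type library A, Atp5g3 had 0.020 and Atp5g1 0.21, and Atp5g3 had 0.32 without wild-type library B. None passed in limma (adjusted p = 0.771 or above), and the differences between them were not tested.

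**Figure D3:**
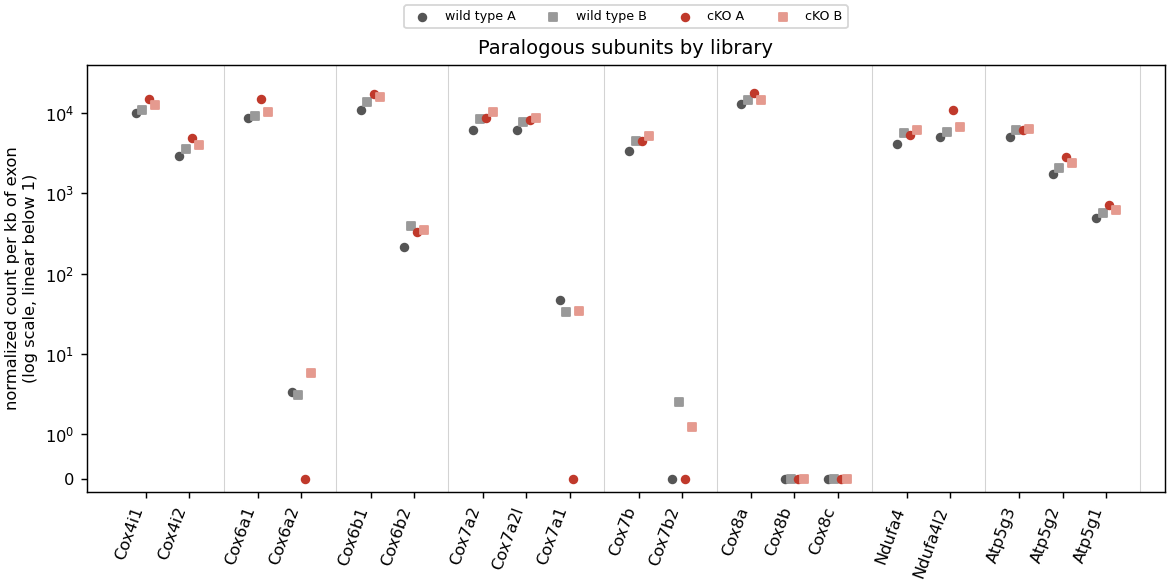
Normalized counts per kb of annotated exon (y axis, logarithmic and linear below 1) are shown for paralogous subunits, with 1 point per library (circles for tag A, squares for tag B, grey for wild type, red for cKO). Cox8b and Cox8c lie at 0 in every library, and Ndufa4l2 in cKO library A stands at 10837, above the other 3 libraries at 4990 to 6703.

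Per kb of exon, levels in wild type ranged from 299 for Ndufb2 to 14870 for Atp5a1 among the 77 members with a mean of at least 1000. Atp5b (14380), Cox8a (13668), Cox6b1 (12256) and Cox4i1 (10552) followed Atp5a1. The gaps between Atp5a1 and Atp5b and between Atp5b and Cox8a were smaller than the spread of the wild-type libraries. Within each wild-type library Atp5a1 was above both, while Atp5b and Cox8a changed places, so the order of that pair is not fixed. Annotated exon length joins the exons of all annotated transcript forms of a gene, expressed or not, so levels per kb depend on the annotation. For Ndufb2 this length is 5628 bases, and which of its forms were expressed was not tested.

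Subunit genes of the mitochondrial chromosome were also higher in cKO, about equally at both tags. Of 13 listed, 12 were tested and all 12 were above 0. Their median log2 fold change was 0.29, with 0.27 at tag A and 0.28 at tag B. In 9 both cKO libraries lay above both wild-type ones, against 17.2% of all genes. The median was 0.177 without cKO library B and 0.185 without wild-type library A. mt-Co1, the catalytic subunit of complex IV, had 324038 and 350374 in wild type and 392502 and 451975 in cKO, with a log2 fold change of 0.32. mt-Cytb, the cytochrome b of complex III, had 160496 and 175298 against 184200 and 212079, at 0.24. Both were highest in cKO library B, whereas cKO library A exceeded cKO library B in 51 of 80 nuclear members. As a share of reads, the mitochondrial genes took 2.10% and 2.39% in wild type and 2.31% and 2.90% in cKO, so here the groups overlapped. mt-Nd4l was at 0 in 3 libraries and was not tested.

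Carriers and subunits outside the name rule had a median of 0.29, or 0.14 without wild-type library A. The groups were apart in 2 of 6 with cKO higher, against 17.2% of all genes. Cycs, cytochrome c, had 2434 and 2644 in wild type and 3177 and 3141 in cKO, without overlap, and a log2 fold change of 0.32. Atpif1, an inhibitor of the ATP synthase, had 6070 and 7373 against 8203 and 8431, also apart, at 0.31. Cyc1, the cytochrome c1 of complex III, had 6178 and 5429 against 8234 and 5949, with overlap and 0.27. Ndufab1, the acyl carrier protein of complex I, was the one of 6 below 0, at −0.14.

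Assembly factors, which build the complexes without staying in them, were divided in direction. Of 47 listed, 44 were found and tested, and 26 of these were above 0 and 18 below. Their median was 0.09, with 0.03 at tag B and 0.026 without cKO library A. The groups were apart in 13 with cKO higher (29.5%, against 17.2% of all genes). They were apart in 8 with cKO lower, where the share of all genes was 22.3%. Lrpprc, which stabilises mitochondrial messenger RNA, had 4291 and 3759 in wild type and 5108 and 3825 in cKO, at 0.14. Coa5, a factor of complex IV assembly, had 3731 and 3544 against 5272 and 3714, at 0.28, and in both genes wild type and cKO overlapped. The regulators of mitochondrial biogenesis had a median of −0.08 over 14 genes, 6 above 0 and 8 below, a sign that turned to 0.01 when libraries were rescaled to equal medians. At tag A their median was −0.16 with 7 of 14 higher, and at tag B it was 0.02 with 9 of 14 higher. Polg, the mitochondrial DNA polymerase, had 8071 and 7021 in wild type and 6449 and 7344 in cKO, at −0.13. Nrf1 had 5367 and 4544 against 6720 and 4902, with overlap. TCA cycle genes had a median of 0.26 with 14 of 16 above 0; tag A had 0.50 and tag B 0.03, and with cKO library A left out the list had 0.0024. Cs, citrate synthase, had 15984 and 14524 against 23012 and 14648 (0.27, overlapping), and Mdh2, a malate dehydrogenase, had 14836 and 13936 against 22852 and 15393 (0.38, apart). No gene of these lists passed in limma over all genes.

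Cytosolic ribosomal protein genes had 77 of 78 above 0, with a median of 0.40, of 0.57 at tag A and of 0.23 at tag B; Rpl4 had 0.27 and Rplp0 0.56. Without wild-type library A the ribosomal median was 0.17, and without wild-type library B it was 0.62. Mitochondrial ribosomal protein genes had 60 of 76 above 0 and a median of 0.21, where Mrpl24 had −0.16 and Mrpl3 0.39. Glycolytic enzymes had 14 of 17 above 0 and a median of 0.40, with 0.45 for Pkm and 0.63 for Eno1. For tag A it was 0.61, for tag B 0.14, and it was 0.056 with cKO library A left out and 0.74 with B left out. The difference between these medians and that of the members was not tested, so the shift cannot be called particular to oxidative phosphorylation.

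**Figure D4:**
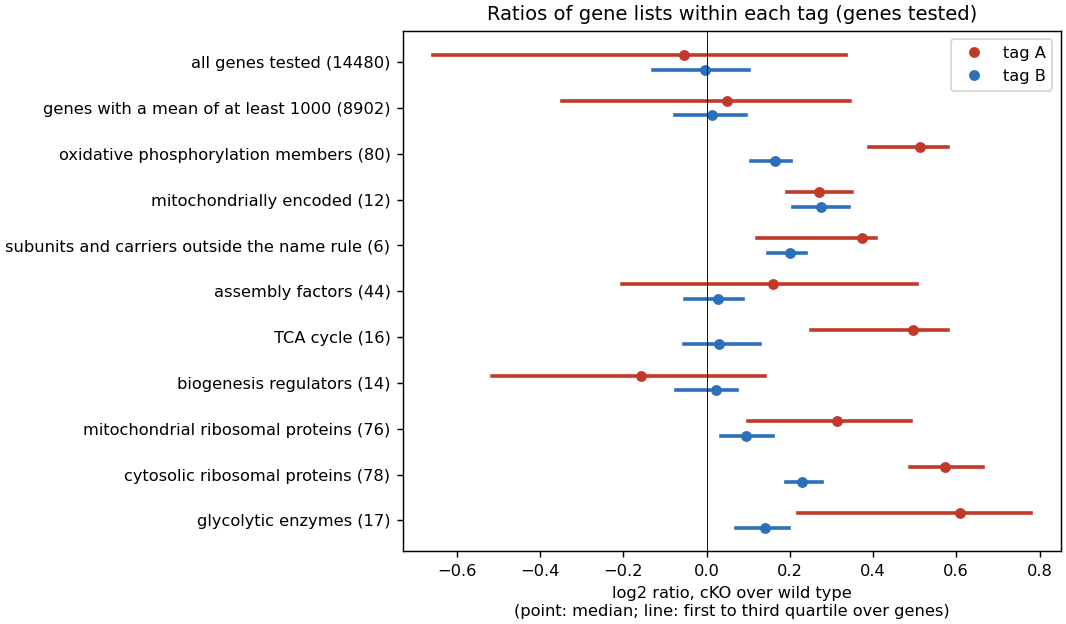
Points are medians and lines run from the first to the third quartile of the log2 ratios of cKO to wild type over the tested genes of each list, at tag A (red) and tag B (blue). The members stand at 0.51 and 0.17, cytosolic ribosomal genes at 0.57 and 0.23, mitochondrially encoded genes at 0.27 and 0.28, and assembly factors at 0.16 and 0.03.

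Fold change also went with transcript length over all genes. Genes were put in 4 classes of equal size by annotated exon length. In the shortest class, up to 2795 bases, which held 61 of the members, the median of all genes was 0.12, of 0.20 at tag A and of 0.04 at tag B. The members of that class had 0.34, of 0.52 at tag A and of 0.17 at tag B. In the longest class the median of all genes was −0.15. The second and the third class held 13 and 5 members, with medians of 0.27 and 0.30 against 0.01 and −0.06 for all their genes. Both cKO libraries lay above both wild-type libraries in 28.8% of all genes of the shortest class. Within the 77 members with a mean of at least 1000, fold change went down with length at a Pearson r of −0.44 and a Spearman rho of −0.47, a relation across genes of the same 4 libraries. Length was thus a measured companion of the shift, and its part in the result was not tested.

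**Figure D5:**
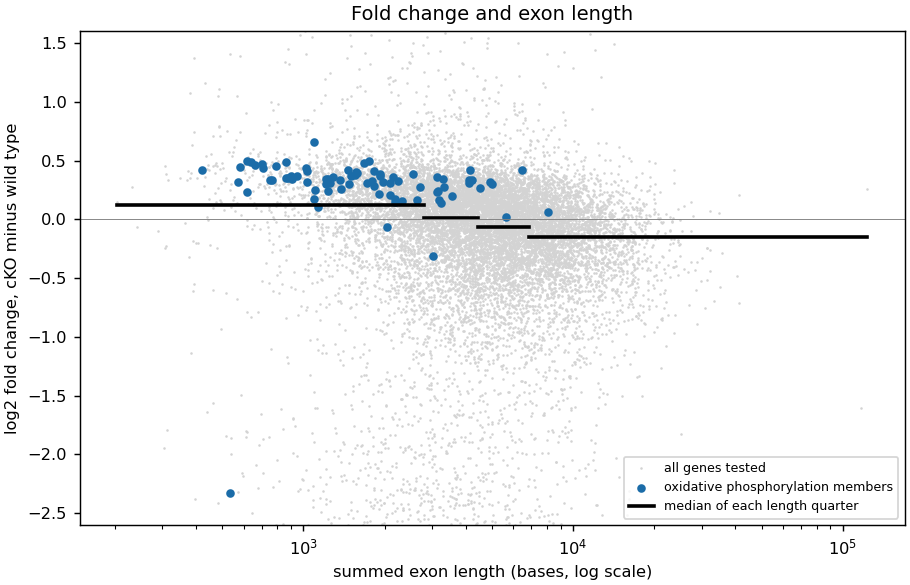
Log2 fold change (cKO minus wild type) is plotted against annotated exon length on a log axis for all tested genes in grey (695 lie outside the axes) and for members in blue; black lines are the medians of 4 length classes. Members of the first 3 classes had medians of 0.34, 0.27 and 0.30, above the lines at 0.12, 0.01 and −0.06, and Cox7a1 lies at −2.33.

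Exons of 26 members overlap those of a gene on the opposite strand, and the sources used here do not say whether counting used strand. The 25 tested members with such an overlap had a median fold change of 0.32 and the 55 without it had 0.33. Many respiratory genes also have processed pseudogenes, and the sources used here do not say how reads that match both were counted.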

How the data were processed

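The deposited signal is the authors' normalized count: reads per gene over a size factor for the library. FastQC, TopHat, HTSeq and DESeq on mm10 are listed per the submitters' processing notes; the sources used here do not give versions, settings, annotation or strand use. All values (100%) were whole multiples of the value of 1 read within 0.01 reads, so reads were recovered. The authors' p-values and ratios come from the deposited table. Both cKO columns carry the heading replicate 2 and were therefore assigned to their group only; p-values measure the spread between these libraries, which may be technical.

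The main test, on 14480 genes with a mean of 10 or more, used limma 3.58.1 on log2(normalized count + 1) (two-sided, mean-dependent prior, Benjamini-Hochberg over all genes), in R 4.3.3. The count tests were edgeR 4.0.16 and DESeq2 1.42.0 on the recovered reads. The scripts were tested on simulated reads. Other alternatives were pseudocounts of 0.5 and 5, no filter, a stricter filter (mean 50), rescaling to equal medians, no mean-dependent prior, a block for the tag and leaving out each library. A list is described by counts and its median, with no test.

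Members and lists were chosen with earlier results of these data known. Named in each complex are the 3 members with the highest mean, those with the highest and lowest fold change at a mean of at least 50, paralogue families and members under the filter; companion lists name the 2 highest means. One member that this rule takes is not reported here. Names beyond this were chosen after their values were seen: Ndufs1, Ndufs5, Cycs, Ndufab1, mt-Nd4l, Gabpa, Yy1, Aif1, Opn1mw, Arr3 and Nr2e3. Coordinates and exon lengths come from GENCODE M21 on GRCm38 (21798 of 22690 identifiers found, 96.1%), and start regions from RefSeq on GRCm38.p6.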

Additional observations from a re-analysis of the deposited data

How the results depend on the processing

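The number of members above 0 was 77 or 78 under the other settings and 75 to 76 when each library was left out. Over left-out libraries the count of genes called by limma ranged from 0 to 5662 and that of members from 0 to 29; the highest came without cKO library B, and without cKO library A 76 genes were called. DESeq2 called 1 gene, Nr2e3, lower in cKO (adjusted p = 0.0375), and edgeR called 0. Medians over left-out libraries ranged from 0.21 (without wild-type library A) to 0.43 for all members, from 0.15 (without cKO library A) to 0.35 for complex II and from 0.14 to 0.49 (without wild-type library B) for complex IV. Median rescaling moved the median of all genes from −0.03 to 0.06 and gave 0.37 for complex II and 0.42 for all members. Without the 3 rows that encode no subunit, a choice made after seeing the data, the median of all members was 0.33. Some single genes changed sign over left-out libraries, with ranges of −0.16 to 0.37 for Cox7c, −0.19 to 0.69 for Cox6b2, −0.067 to 0.39 for Ndufv1, −0.14 to 0.18 for Ndufb2 and −0.039 to 0.71 for Sdha. The causes were not tested. No label says what the tags stand for; deviations of same-tag libraries correlated at 0.258 across genes. With the replicate block limma called 0 members (lowest adjusted p = 0.434), and 5 were higher at an unadjusted p under 0.05 (1.05% of all genes). The block leaves fold changes as they are by construction.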
